A study of Homo sapiens with 6 samples.

Results

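The insulin-like growth factor (IGF) axis was followed in T47D cells as 10 genes, taken by their symbols from the 27754 genes counted in every library. They were 5 binding proteins (IGFBP2, IGFBP3, IGFBP4, IGFBP5 and IGFBP6), 3 receptors (IGF1R, IGF2R and INSR) and 2 substrates (IRS1 and IRS2). T47D is an established luminal breast cancer line that carries estrogen and progesterone receptors. RNA was sequenced from 3 libraries of cells kept in normoxia (20% O2) and 3 libraries of cells kept for 48 h in hypoxia (0.5% O2 by the labels, while the study's text gives another level), all grown adherent in RPMI with 10% FBS. The comparison asked which mRNAs of the axis differ between these conditions in 1 cell line. Replicates carry the numbers 1 to 3 under both conditions, and no label says that they came from separate cultures, so the p-values measure the spread between these libraries, which may be technical. The study describes the data shown with this experiment as coming from independent experiments. In bulk RNA, fewer cells expressing a gene and less RNA per cell cannot be told apart.

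IGF1R and INSR are receptor tyrosine kinases that bind IGFs and insulin and phosphorylate the docking proteins IRS1 and IRS2, which recruit PI3K and so activate AKT. IGF2R, also known as the cation-independent mannose phosphate receptor, takes IGF2 into lysosomes and has no kinase. The secreted IGFBPs hold IGFs outside the cell, where they can block or prolong access to the receptor, and proteases release the ligand again. In luminal breast cancer cells, IGF1R, IRS1, IGFBP4 and IGFBP5 are known for their ties to estrogen signaling.

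The libraries held 32989104 to 89883409 counts, with hypoxia replicate 3 the deepest, and 3 counts corresponded to 0.0334 to 0.0909 counts-per-million (CPM). The 10 luminal markers summed to 14372 to 18448 CPM in normoxia and 10523 to 13763 CPM in hypoxia, and ESR1 and PGR, the receptors for estrogen and progesterone, had log2-fold changes of -1.86 and -2.93. Of 8 stromal and blood markers, 7 were under 1 CPM in all libraries, the exception being COL1A1, and no marker of any list was at 0 throughout. The part of these changes in the values below was not tested. The known hypoxia responders VEGFA, CA9, NDRG1, ANKRD37, PDK1 and ADM were all higher in hypoxia. Replicate 3 of both conditions stood apart from replicates 1 and 2 on the principal component with 10.4% of the variance, and vimentin (VIM), a mesenchymal marker, had 395 and 1001 counts there against 7 to 35 in the other libraries. These counts are not scaled for depth. MSN, CAV1 and CAV2 of the same list also had their most counts in replicate 3 of each condition. CD44 went the other way, with 1301 counts in normoxia replicate 3 against 2462 and 2919 in replicates 1 and 2. In hypoxia it had 3540, 3879 and 5777 counts in libraries totalling 38580858, 34640756 and 89883409. For its depth, replicate 3 was thus the lowest for CD44 in both conditions. The 8 mesenchymal markers summed to 244 to 266 CPM in normoxia and 300 to 339 CPM in hypoxia. SE below is the standard error of the log2-fold change. Among 15657 genes tested with edgeR's quasi-likelihood test, 59.5% passed an adjusted p of 0.05, with 30.4% higher and 29.1% lower in hypoxia. Higher genes were 51.1% of those called, and 64.5% with upper-quartile factors in place of TMM.

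All 10 genes of the axis passed the filter on low counts and were tested, although IGFBP3 reached it through the hypoxia libraries alone and so had to differ. IGFBP2, IGFBP3, IGFBP5, IGFBP6, IGF2R, INSR and IRS2 were higher in hypoxia, IGFBP4 was lower, and IGF1R and IRS1 did not pass the threshold. That made 7 higher and 1 lower of 10, beside the 59.5% called among all genes, and the count is not read further. For the same 8 genes the CPM values of the 2 conditions did not overlap, which held for 67.3% of all tested genes. Without normoxia replicate 3, or without both libraries numbered 3, 7 were higher and 2 lower, IRS1 being the addition. The higher genes numbered 5 without normoxia replicate 1 or 2 and 6 without hypoxia replicate 2. In absolute size the log2-fold changes ran from 6.60 for IGFBP3, a value that rests on 6 normoxia counts, down to 0.05 for IGF1R.

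**Figure D1:**
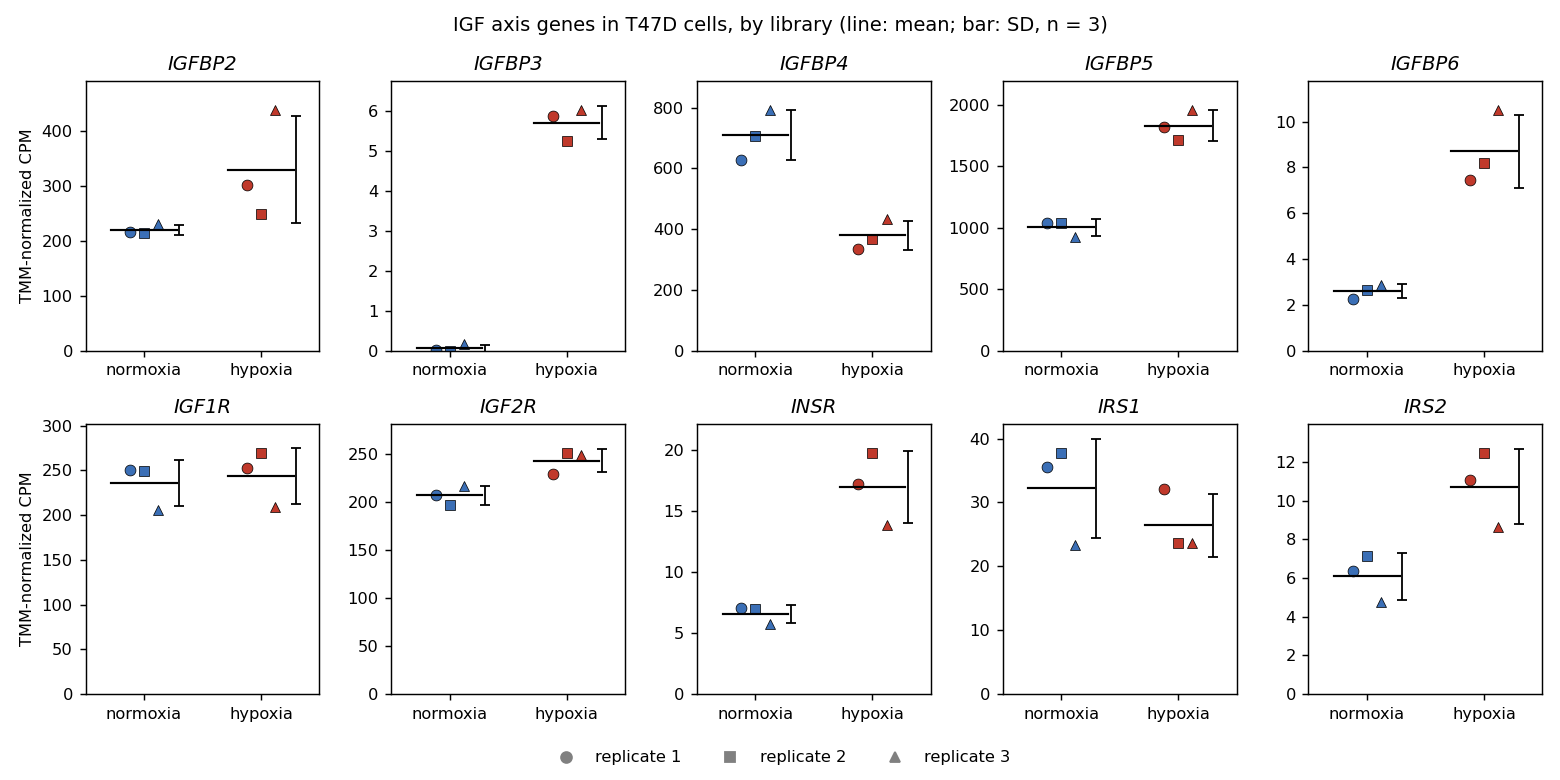
TMM-normalized CPM (vertical axes, linear from 0) of the 10 genes in the 6 libraries, with normoxia in blue and hypoxia in red; symbols mark the replicate number, lines the means and bars the SD (n = 3). IGFBP4 is the 1 gene with all hypoxia libraries below all normoxia libraries, and the conditions overlap for IGF1R and IRS1.

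IGFBP3, the main IGF carrier of serum, went from near absence to a low but clear level. Replicates 1, 2 and 3 had 1, 0 and 5 counts under normoxia, against 238, 192 and 552 under hypoxia. As CPM these were 0.0253, 0 and 0.162 against 5.88, 5.25 and 6.04. The hypoxia libraries lay close together, and all were above every normoxia library. With 6 normoxia counts in all, the ratio of pooled counts per effective library size was 105, with an exact 95% binomial interval of 47.9 to 286. Because the libraries were pooled, this interval covers counting error alone and leaves out the spread between libraries. It also treats each read as a separate molecule, although the reads carry no molecular identifiers and PCR copies cannot be told apart. The fitted log2-fold change was 6.60 (SE 0.53, adjusted p = 8.32e-05). It became 8.52 without normoxia replicate 3, the library with 5 of the 6 counts, and 5.99 without normoxia replicate 2.

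The counted exons of IGFBP3 lie on the reverse strand of chromosome 7 (45951844 to 45960871, GRCh37), and the RefSeq start site, at 45960871, coincides with the 5′ end of the counted exons. The 250 bases before that start are shown because this gene changed most and because the core of the hypoxia response element, the letters ACGTG or GCGTG (on the other strand CACGT or CACGC), occurs there in 3 places, given in capitals. These bases (chr7:45960872-45961121, reverse strand, GRCh37) read 5′ to 3′ as follows.
IGFBP3: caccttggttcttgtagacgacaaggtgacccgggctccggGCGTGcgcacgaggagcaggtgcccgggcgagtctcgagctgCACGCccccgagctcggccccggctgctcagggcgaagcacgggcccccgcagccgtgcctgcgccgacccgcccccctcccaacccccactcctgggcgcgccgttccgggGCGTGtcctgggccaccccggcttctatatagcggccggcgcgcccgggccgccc
The same letters occur in 43.2% of 35116 RefSeq promoters of this length, so a match describes the sequence and says nothing of binding.

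IGFBP5 was the binding protein mRNA with the highest CPM in both conditions, and it rose further. Its values were 1041, 1042 and 923 CPM in normoxia and 1821, 1710 and 1957 CPM in hypoxia replicates 1, 2 and 3. The lowest hypoxia library was well above the highest normoxia library. This was a 1.83-fold increase (log2-fold change 0.87, SE 0.09, adjusted p = 2.22e-04), and reads of this gene went from 0.0963% ± 0.0084 to 0.190% ± 0.0092 (SD, n = 3) of all counts. IGFBP5 lies on the reverse strand of chromosome 2 (217536828 to 217560272, GRCh37). The 250 bases before its start are shown beside those of IGFBP3 because they hold the motif in 0 places (chr2:217560273-217560522, reverse strand, GRCh37).
IGFBP5: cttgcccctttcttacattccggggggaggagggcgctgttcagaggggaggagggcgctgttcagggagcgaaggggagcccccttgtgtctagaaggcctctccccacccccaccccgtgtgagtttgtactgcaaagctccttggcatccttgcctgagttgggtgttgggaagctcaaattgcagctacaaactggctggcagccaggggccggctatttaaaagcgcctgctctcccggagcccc
The absence of these letters from this window says nothing about regulation from elsewhere.

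IGFBP4, which in many cell systems restrains IGF action, was the 1 gene of the axis called lower with all 6 libraries. It had 628, 705 and 792 CPM in normoxia and 336, 369 and 433 CPM in hypoxia. Within each condition replicate 3 was the highest library, and the conditions did not overlap. Its log2-fold change was -0.90 (SE 0.12, adjusted p = 6.28e-04), and the 3 same-numbered pairs gave -0.90, -0.93 and -0.87. The gene is on the forward strand of chromosome 17 (38599676 to 38613982, GRCh37). Its neighbours TOP2A, a DNA topoisomerase 25474 bases away, and TNS4, 18098 bases away, were at -0.49 and -0.75 (adjusted p = 0.0158 and 0.00971). Of all tested genes 29.1% were lower, so the likeness to these neighbours is not read further.

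IGFBP6, which prefers IGF2 over IGF1 as ligand, rose from a low level. It had 2.26, 2.66 and 2.88 CPM in normoxia and 7.46, 8.17 and 10.5 CPM in hypoxia, at 89 to 99 counts per normoxia library. The increase was 3.37-fold (log2-fold change 1.75, SE 0.19, adjusted p = 2.32e-04), and the conditions did not overlap. The gene lies on the forward strand of chromosome 12 (53491436 to 53496128, GRCh37).

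IGFBP2 rose least among the binding proteins, and its estimate depended on single libraries. Normoxia was tight at 216, 214 and 230 CPM, whereas hypoxia gave 302, 249 and 438 CPM. Hypoxia replicate 3 was far above the other hypoxia libraries. Over all libraries the log2-fold change was 0.58 (SE 0.19, adjusted p = 0.0264), and the same-numbered pairs gave 0.49, 0.22 and 0.93. Without hypoxia replicate 3 it was 0.32 (adjusted p = 0.0214), without both libraries numbered 3 it was 0.36 (adjusted p = 6.32e-04), and without normoxia replicate 1 or 2 it did not pass (adjusted p = 0.0729 and 0.0695). IGFBP2 (chromosome 2, 217497551 to 217529158, GRCh37) is the nearest neighbour of IGFBP5, with 7670 bases between their facing 3′ ends.

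**Figure D2:**
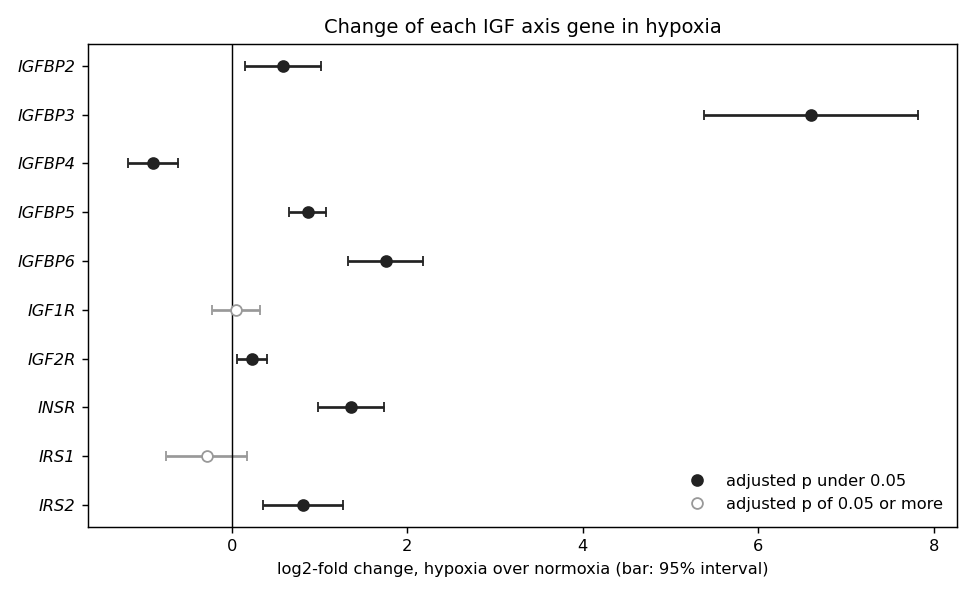
Log2-fold change of each gene, hypoxia over normoxia (horizontal axis), with the 95% interval from edgeR's quasi-likelihood fit as bars. Filled black points passed an adjusted p of 0.05, and the open grey points of IGF1R (0.05) and IRS1 (-0.29) did not.

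Levels of different genes were compared as CPM per kilobase of counted exon, since the counted length ran from 966 bases for IGFBP6 to 14042 for IGF2R. On that scale IGFBP4 led in normoxia with 317 ± 36.8 (SD, n = 3), followed by IGFBP5 with 160.5 ± 10.9 and IGFBP2 with 110 ± 4.37, without overlap between neighbours. In hypoxia IGFBP5 led with 293 ± 19.8, and IGFBP4 (169.6 ± 21.9) and IGFBP2 (164 ± 48.6) overlapped. These 3 mRNAs exceeded 96.2% or more of tested genes in each condition. IGFBP6 rose from 2.69 ± 0.33 to 9.02 ± 1.65, and IGFBP3 from 0.0237 ± 0.033 to 2.17 ± 0.16 on this scale.

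The makeup of binding protein mRNA changed within each library, a measure that does not depend on library scaling. IGFBP4 made up 50.4%, 53.3% and 57.2% of the length-scaled counts of the 5 genes in normoxia and 24.95%, 28.8% and 26.2% in hypoxia. The share of IGFBP5 went from 29.9%, 28.2% and 23.9% to 48.4%, 47.8% and 42.5%. IGFBP2 took 18.6% ± 0.63 in normoxia and 25.4% ± 3.98 in hypoxia (SD, n = 3). IGFBP6 went from 0.455% ± 0.032 to 1.41% ± 0.11, and IGFBP3 from 0.00388% ± 0.0053 to 0.343% ± 0.030. None of these 5 shares overlapped between conditions, and each gave p = 0.1 in a two-sided exact permutation test, the smallest p that 3 against 3 libraries allow (0.129 after adjustment over 9 ratios and shares). The shares are parts of 1 sum, so a fall of 1 raises others and they are not 5 separate results. IGFBP3 passed the filter through the hypoxia libraries alone, so its share had to differ. In CPM, 67.3% of all tested genes did not overlap between conditions. Dividing by length changed large and small shares alike, and without it IGFBP5 had the largest share in both conditions. Of counts not divided by length, IGFBP2 took 11.4% ± 0.45 in normoxia and 12.7% ± 2.43 in hypoxia, which overlapped (exact permutation p = 0.5). IGFBP6 then went from 0.134% ± 0.014 to 0.340% ± 0.035 and IGFBP3 from 0.00321% ± 0.0045 to 0.225% ± 0.013, while IGFBP4 went from 36.6% ± 3.74 to 14.9% ± 1.13, and IGFBP5 went from 51.9% ± 4.03 to 71.8% ± 2.63. The total also depended on the scale. The summed level per kilobase of the 5 genes was 590 ± 31.2 in normoxia and 638 ± 88.1 in hypoxia and overlapped (exact permutation p = 0.6). Their summed CPM, 1933 ± 40.6 and 2552 ± 261, did not overlap (exact permutation p = 0.1), nor did their part of all counts, 0.186% ± 0.0057 and 0.265% ± 0.022 (exact permutation p = 0.1).

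**Figure D3:**
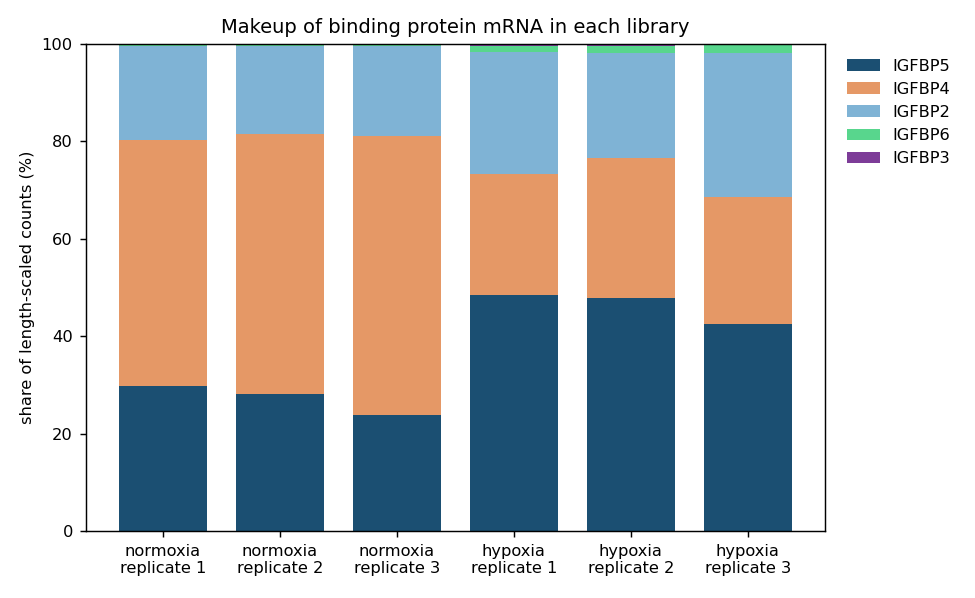
Share of each binding protein in the length-scaled counts of the 5 genes (vertical axis, percent) in each of the 6 libraries (1 bar each). The IGFBP4 band shrinks from 50.4% or more in every normoxia library to 28.8% or less in every hypoxia library, the IGFBP5 band widens, and the IGFBP3 band is at most 0.371%.

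Among the receptors, INSR changed by far the most. The insulin receptor gene (chromosome 19, 7112266 to 7294313, reverse strand, GRCh37) had 6.99, 6.99 and 5.72 CPM in normoxia and 17.2, 19.7 and 13.8 CPM in hypoxia. Every hypoxia library was above every normoxia library, with replicate 3 the lowest in both conditions. The increase was 2.57-fold (log2-fold change 1.36, SE 0.16, adjusted p = 3.57e-04), and with libraries left out the log2 value ran from 1.23 to 1.48. Gene counts do not separate the INSR isoforms with and without the alternatively spliced exon.

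IGF1R, the receptor for IGF1 and IGF2, did not pass the threshold. It had 251, 250 and 206 CPM in normoxia and 252, 269 and 209 CPM in hypoxia, with replicate 3 lowest in both. The log2-fold change was 0.05 (95% interval -0.23 to 0.33, adjusted p = 0.744), and the libraries of both conditions overlapped. Its exons (chromosome 15, 99191768 to 99507759, forward strand, GRCh37) share 1137 of 12235 counted bases with the antisense gene IRAIN, and the strand setting of the counting is not given in the sources used here. IRAIN had 58 to 138 counts per library.

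IGF2R (chromosome 6, 160390131 to 160532534, forward strand, GRCh37) was slightly higher. It had 207, 197 and 216 CPM in normoxia and 228, 250 and 248 CPM in hypoxia, without overlap. The difference was small, with a log2-fold change of 0.23 (SE 0.07, adjusted p = 0.0288). The call was lost without normoxia replicate 1 or 2 or hypoxia replicate 2 (adjusted p = 0.114, 0.129 and 0.102) and when all genes with at least 1 count were tested (adjusted p = 0.0514). The 250 bases before its RefSeq start (chr6:160389864-160390113, forward strand, GRCh37) are shown as a contrast to IGFBP3, because the motif stands there in 3 places, each read on both strands at once.
IGF2R: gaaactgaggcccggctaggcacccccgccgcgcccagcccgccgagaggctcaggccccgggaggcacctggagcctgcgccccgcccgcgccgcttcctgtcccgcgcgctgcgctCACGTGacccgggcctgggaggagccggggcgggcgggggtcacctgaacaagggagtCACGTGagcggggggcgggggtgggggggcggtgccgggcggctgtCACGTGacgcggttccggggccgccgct
Across the axis, 5 of 10 genes had the motif before a RefSeq start. Counted by promoter this was 5 of 12, beside 43.2% of all RefSeq promoters, and it is not read further. IGF1R had 5 places, IGF2R and IGFBP3 3 each, and IRS1 and 1 of the 3 IGFBP2 starts 1 place, whereas IGFBP4, IGFBP5, IGFBP6, INSR and IRS2 had 0. The RefSeq start of IRS1 lies 1030 bases from the nearest counted exon start.

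Per length, IGF1R (19.2 ± 2.10 in normoxia and 19.9 ± 2.54 in hypoxia) was the receptor mRNA with the highest mean, followed by IGF2R (14.7 ± 0.69 and 17.3 ± 0.86). Their libraries overlapped in hypoxia, where IGF2R was the higher in replicate 3 (17.7 against 17.1). INSR stood at 0.701 ± 0.078 and 1.81 ± 0.31, so IGF1R exceeded it in every library. The INSR/IGF1R ratio of length-scaled counts was 0.0364, 0.0366 and 0.0363 in normoxia and 0.0890, 0.0957 and 0.0865 in hypoxia. That ratio hardly varied within normoxia, although both genes were lower in replicate 3. On the log2 scale it was higher in hypoxia by 1.31 (exact permutation p = 0.1, the smallest possible; 0.129 adjusted). The IGF2R/IGF1R ratio was 0.773 ± 0.12 in normoxia and 0.878 ± 0.14 in hypoxia (SD, n = 3) and overlapped (exact permutation p = 0.4), as did the IGFBP5/IGFBP2 ratio (1.47 ± 0.15 and 1.86 ± 0.39, exact permutation p = 0.3). Within same-numbered pairs both ratios were higher in hypoxia in 3 of 3, by 0.13, 0.24 and 0.18 on the log2 scale for IGF2R/IGF1R and by 0.32, 0.50 and 0.16 for IGFBP5/IGFBP2. An exact paired test of 3 pairs cannot go below p = 0.25, which both ratios gave.

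Of the substrates, IRS2 rose and IRS1 did not pass the threshold. IRS2 (chromosome 13, 110406184 to 110438914, reverse strand, GRCh37) had 6.36, 7.15 and 4.75 CPM in normoxia and 11.1, 12.5 and 8.62 CPM in hypoxia. For IRS2 the log2-fold change was 0.81 (SE 0.20, adjusted p = 0.00885), and the same-numbered pairs gave 0.80, 0.80 and 0.86. IRS1 (chromosome 2, 227596033 to 227663506, reverse strand, GRCh37) had 35.6, 37.7 and 23.3 CPM in normoxia and 32.2, 23.6 and 23.6 CPM in hypoxia. Normoxia replicate 3 was as low as the hypoxia libraries. The log2-fold change was -0.29 (95% interval -0.75 to 0.17, adjusted p = 0.243), but it was -0.48 without normoxia replicate 3 (adjusted p = 0.0261) and -0.39 without both libraries numbered 3 (adjusted p = 0.00604).

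IRS1 remained the more abundant substrate mRNA per length, at 3.69 ± 0.89 against 0.870 ± 0.17 for IRS2 in normoxia and 3.03 ± 0.57 against 1.53 ± 0.28 in hypoxia (SD, n = 3). The IRS2/IRS1 ratio was 0.223, 0.237 and 0.255 in normoxia and 0.430, 0.660 and 0.456 in hypoxia. All hypoxia libraries were above all normoxia libraries, a log2 difference of 1.09 (exact permutation p = 0.1, the smallest possible; 0.129 adjusted).

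**Figure D4:**
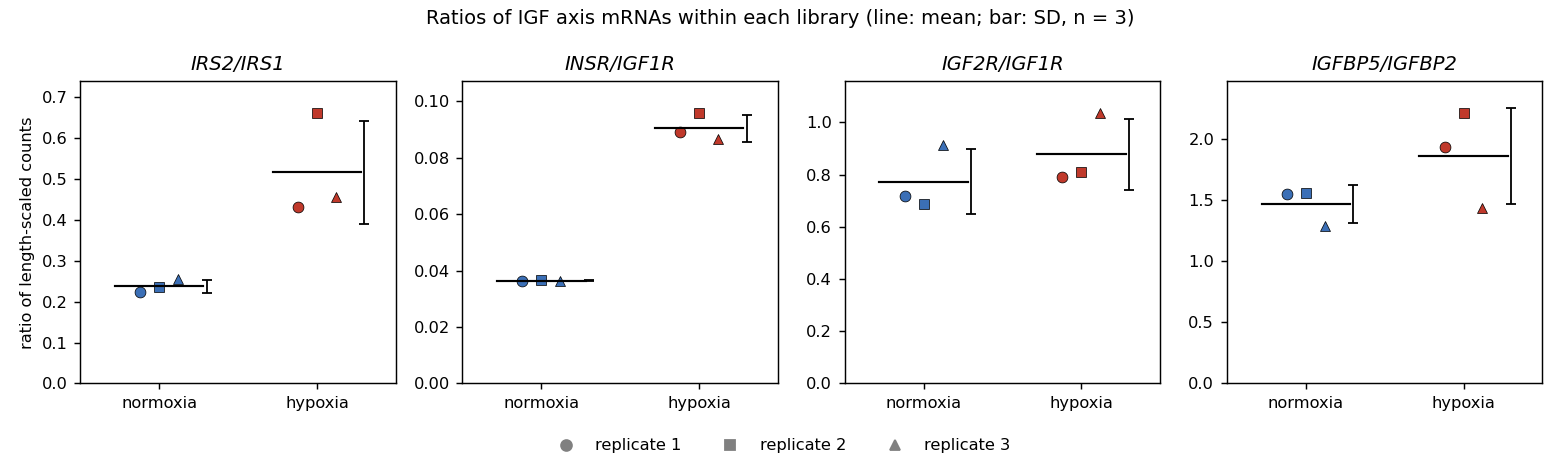
Ratios of length-scaled counts within each library (vertical axes, linear from 0), normoxia in blue and hypoxia in red, with means as lines and SD as bars (n = 3). INSR/IGF1R and IRS2/IRS1 separate the conditions, and IGF2R/IGF1R and IGFBP5/IGFBP2 overlap.

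The ligands themselves were scarce. INS had 0 counts in all libraries, and IGF1 had at most 3 counts in any library. IGF2, named here after its values were seen, had 2, 1 and 3 counts in normoxia and 39, 24 and 140 in hypoxia, reaching 1.05 ± 0.44 CPM (SD, n = 3), with a log2-fold change of 4.20 (SE 0.54, adjusted p = 5.12e-04). INS-IGF2, which overlaps IGF2 in the genome, had at most 2 counts. IGFBP1, the neighbour of IGFBP3 at 18577 bases, had 0, 0 and 2 counts in normoxia and 7, 7 and 20 in hypoxia and was not tested. Of 13 ligands, further binding proteins and IGF2 mRNA-binding proteins, 6 were tested, with 3 higher (IGF2, IGFBPL1 and IGF2BP2) and 1 lower (KAZALD1, at -0.74), all named after their values were seen. IGF2 reached the filter through the hypoxia libraries alone, so its call is no support for the list. Without hypoxia replicate 1, 1 gene of the list was called higher. Among all tested genes 59.5% were called, so the count for this list is not read further.

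Of 11 genes for release and turnover of ligands, 8 were tested, with 3 higher and 3 lower. This count too stands beside 59.5% called among all tested genes and is not read further. Of the higher genes, ADAM12 also reached the filter through the hypoxia libraries alone. IDE, the protease that degrades insulin, fell from 129 ± 4.20 to 60.6 ± 1.64 CPM (SD, n = 3), or -1.095 on the log2 scale (SE 0.07, adjusted p = 4.23e-05). The IGFBP4 protease PAPPA had at most 6 counts in any library, while its inhibitors STC1 and STC2 stood at 86.6 ± 11.7 and 1162 ± 56.7 CPM in hypoxia. STC1 was lower by a log2-fold change of -0.76 and STC2 was at -0.045 (adjusted p = 6.73e-04 and 0.691). PAPPA, STC1 and STC2 were named after their values were seen.

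Of 22 adaptors and brakes next to the receptors, 19 were tested, with 7 higher, 4 lower and a median of 0.24, beside 0.03 for all tested genes. Without both libraries numbered 3, 11 genes of this list were higher. In the PI3K-AKT-FOXO arm all 24 genes were tested, and 9 were higher and 10 lower, with a median of 0.06. FOXO1, the transcription factor that AKT keeps out of the nucleus, rose from 9.07 ± 1.27 to 29.0 ± 1.87 CPM, at 1.68 (SE 0.13, adjusted p = 7.04e-05). PIK3CD, a catalytic subunit of PI3K, was higher by 1.99, and PIK3IP1, an inhibitor of PI3K, by 1.21 (adjusted p = 5.06e-05 and 0.00495). The regulatory subunit PIK3R3 was lower, at -1.16 (adjusted p = 0.00268). The 10 lower genes of this arm became 5 without hypoxia replicate 1, 6 without hypoxia replicate 2 and 5 with upper-quartile factors. Over the 4 lists, 70.2% of 57 tested genes passed the threshold, IGF2 and ADAM12 included, beside 59.5% of all genes. The lists were chosen with earlier results of these data known, so neither this share nor the counts per list are read further.

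**Figure D5:**
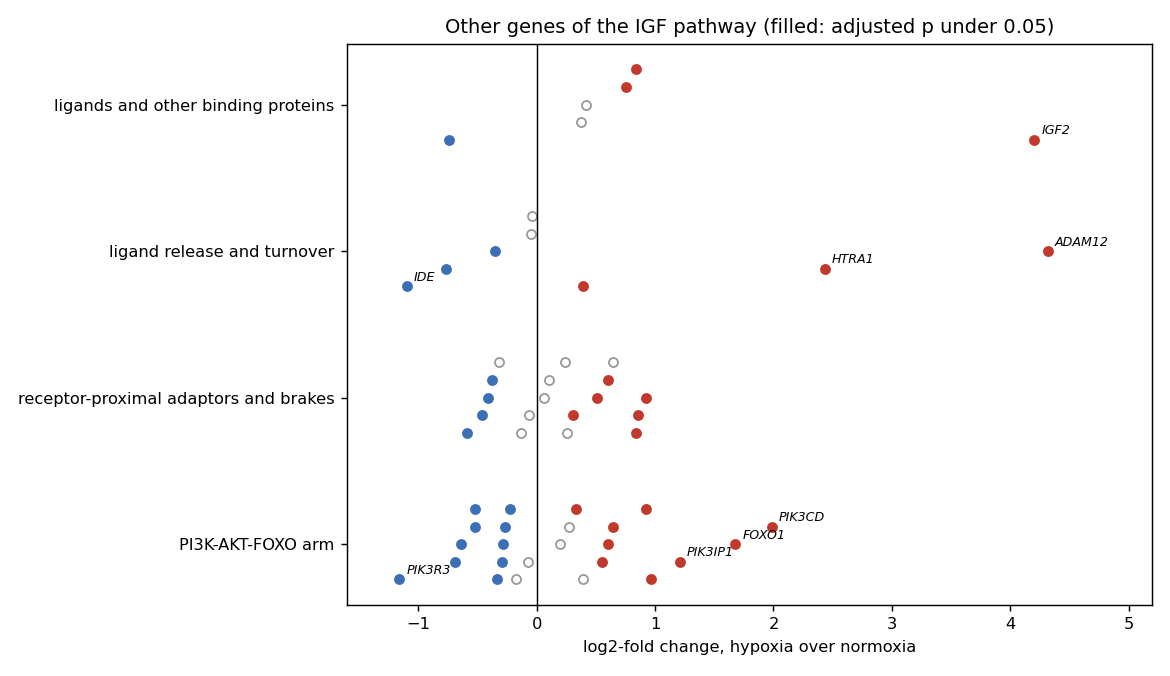
Log2-fold change, hypoxia over normoxia (horizontal axis), of the tested genes of the 4 lists (rows), with 1 gene of the adaptors and brakes not drawn. Filled red points were higher and filled blue points lower at an adjusted p under 0.05, open grey points did not pass, and names mark called changes of 1 or more. The 2 points beyond 4 are IGF2 and ADAM12, which have few counts in normoxia (ADAM12 and HTRA1 fall outside the naming rule).

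Other genes followed nearly the same course as single genes of the axis over the 6 libraries, by the root-mean-square distance of centred log2 CPM computed for 12664 genes averaging 100 counts or more. The nearest were PHGDH for IGFBP2 (0.0323), SLC25A1 for IGFBP4 (0.0504), TCF7 for IGFBP5 (0.0393) and SMAD3 for IGFBP6 (0.0753). They were TTF1 for IGF1R (0.0205), DGUOK for IGF2R (0.0135), LYST for INSR (0.043), ABCA12 for IRS1 (0.0855) and TAF1 for IRS2 (0.0377). For IGFBP3 the nearest was PNMA2, at 0.625. This distance is not scaled for the size of a change, and IGFBP3 had 6 normoxia counts in all. With so many genes compared over 2 conditions, these are descriptions of likeness only. Near the other genes of the axis, SPRYD3 beside IGFBP6 was at -0.48, ZNF557 and ARHGEF18 beside INSR at 0.59 and -0.33, and RHBDD1 beside IRS1 at 0.42, all at an adjusted p under 0.05. LOC729603, inside the span of IGF2R, was at 1.33 (adjusted p = 5.71e-04).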

How the data were processed

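The authors extracted total RNA, prepared stranded mRNA libraries and sequenced them on Illumina HiSeq. Per the labels and the study's methods, reads were checked with FastQC 0.11.5, trimmed with Skewer, aligned to GRCh37 (hg19) with STAR 2.5.2a and assigned to RefSeq genes with featureCounts 1.5.1. The values are the read counts per gene that the authors deposited, 1 file per library, without normalization. Strand and multi-mapping settings are not given in the sources used here.

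Counts were analysed in R 4.3.3 with edgeR 4.0.16. Genes kept by filterByExpr (minimum count 10, minimum total 15) were tested with the quasi-likelihood test on all 6 libraries after TMM normalization, using a model with condition alone, and p-values were adjusted by Benjamini-Hochberg over all 15657 tested genes (threshold 0.05). The exact test of edgeR, which the study's methods name, DESeq2 1.42.0, other factors and filters, a replicate block and left-out libraries were alternatives. The test was tried on simulated counts with known changes. Standard errors are the log2-fold change divided by the square root of F. CPM uses TMM library sizes. Ratios were compared with exact permutation tests in SciPy 1.17.1.

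Same-numbered libraries deviated together from their condition means, with correlations across genes of 0.338, 0.422 and 0.575. Between replicates 1 and 2 of different conditions the correlations were 0.277 and 0.243, and differently numbered pairs with a replicate 3 gave -0.376 to -0.466. The numbers thus pair replicate 3 clearly and replicates 1 and 2 less so. The study's methods call the samples paired. The main model left pairing out, and the replicate block was the alternative with it. The genes of the axis and the pathway lists were chosen with earlier results of these data known. Named genes were every gene of the axis, list genes past the threshold that changed by 1 or more on the log2 scale and averaged 100 counts or more, the nearest profiles and the nearest neighbours. The values of 1 list gene named by this rule are not reported here, although the list counts include it. RefSeq promoter sequences (GRCh38.p14 table, 12 for the 10 genes) were matched exactly, each in 1 place, to GRCh37.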

Additional observations from a re-analysis of the deposited data

How the results depend on the processing

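IGFBP3, IGFBP4, IGFBP5, IGFBP6, INSR and IRS2 kept their direction and their side of the threshold in all 14 alternatives. With the replicate block no gene of the axis changed its call, and 5733 genes were higher and 5511 lower over the whole table, against 4765 and 4551 without it. With single libraries or both numbered 3 left out, IGF1R ran from -0.044 to 0.144 and so changed sign without ever passing the threshold. In the same fits the number of axis genes called higher was 5 to 7, the number called lower 1 to 2, that of ligands and other binding proteins called higher 1 to 3, that of adaptors and brakes called higher 6 to 11, and that of the PI3K-AKT-FOXO arm called lower 5 to 11. Upper-quartile factors shifted all tested genes by a median of 0.157 (log2), called 64.5% of changed genes higher in place of 51.1%, and left 5 lower genes in the PI3K-AKT-FOXO arm. No gene of the axis changed direction with them. Without division by length, the difference between conditions was 1.36 percentage points for the share of IGFBP2 in place of 6.77, 0.206 for IGFBP6 in place of 0.956 and 0.222 for IGFBP3 in place of 0.339. For IGFBP4 the difference was -21.76 in place of -26.96, and for IGFBP5 19.98 in place of 18.9. The mean normoxia share was then 51.9% for IGFBP5 in place of 27.3%, and 36.6% for IGFBP4 in place of 53.6%. Without TMM, the level of IGFBP2 in normoxia was 105 CPM per kilobase in place of 110. The cause of these moves was not tested. With 3 against 3 libraries, the exact permutation tests could not go below 0.1, and the 6 normoxia counts of IGFBP3 limit its fold change.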
